A study of Bos taurus with 6 samples.

Results

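The genes described here are the WNT ligands, their receptors and their antagonists in cultured bovine granulosa cells (GC), the steroid producing cells that line the ovarian follicle. They were taken by gene symbol from the deposited array table: all WNT, FZD, SFRP, DKK and RSPO genes, LGR4, LGR5 and LGR6, and LRP5, LRP6, AXIN1, AXIN2, WIF1, FRZB, LEF1, TCF7, TCF7L2, ZNRF3, RNF43 and PORCN. The table lists 53 of these genes on 54 transcript clusters, the array's unit for a gene, out of 26773 transcript clusters in all. RSPO3 has 2 transcript clusters. WNT4 and WNT7B are listed under locus names and not under their symbols, so they lie outside the choice by symbol, and TCF7L1 and FZD6 were not matched to any transcript cluster.

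RNA came from 6 cultures of primary GC, 3 plated at normal density (100000 cells per well) and 3 at high density (1000000 cells per well), with each culture on its own Bovine Gene 1.0 ST Array. The serum-free medium held 20 ng/ml FSH, 50 ng/ml IGF-1 and 2 μM androstenedione at both densities and the culture time was 9 days on a collagen coat, so that initial plating density was the condition that differed. The cells were pools from many small to medium sized abattoir follicles of cows with undefined cyclicity. The labels do not say whether the cultures of a density came from separate pools, and the p-values therefore measure only the spread between these cultures.

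WNT proteins are secreted lipid modified ligands. In the canonical pathway they bind a Frizzled receptor (FZD) together with LRP5 or LRP6, which protects β-catenin from degradation by a complex built on AXIN and lets it act with the TCF/LEF transcription factors. SFRP proteins, FRZB and WIF1 capture WNT ligands outside the cell, most DKK proteins block the LRP co-receptors, and R-spondins act through LGR receptors against the ubiquitin ligases ZNRF3 and RNF43, which otherwise remove FZD from the cell surface. In the ovary WNT signalling takes part in gonad differentiation, follicle growth and luteal function.

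Values are log2 signals, and a difference is the high density mean minus the normal density mean. The arrays had median log2 signals between 4.34 and 4.43. The background level was 4.62, the 95th percentile of the 82 reporter control transcript clusters, and signals below it carry only a bound on a level. A transcript cluster is termed called when limma's moderated test gave a fold change (FC) above 1.5 in size, a p-value below 0.05 and an adjusted p-value (FDR) below 0.05. Of 12 granulosa marker genes, all 12 were above background in at least 1 density. At high density 10 had the lower mean and 6 were called lower, namely CYP19A1, FSHR, INHA, INHBA, FST and FOXL2. CYP11A1 differed the other way, from 10.91 to 11.16 (0.26, limma adjusted p = 0.0294), without passing the FC threshold. GATA4 also had the higher mean at high density (0.12, limma adjusted p = 0.419). The summed granulosa marker level, on the log2 scale, lay between 13.01 and 13.10 at normal density and between 12.68 and 12.70 at high density. Markers of other ovarian cells moved as well. The summed theca level lay between 9.99 and 10.11 at normal and between 10.46 and 10.63 at high density, with 5 of 6 markers above background, INSL3 and COL1A1 called higher and CYP17A1 below background. PTCH1 (0.31, limma adjusted p = 0.0284) and COL3A1 (0.39, limma adjusted p = 0.0302) were also higher and passed the FDR threshold only. STAR of this list differed the other way, from 9.03 to 8.54 (−0.49, limma adjusted p = 0.0105), without passing the FC threshold. For endothelium the ranges were 6.69 to 6.75 and 8.02 to 8.21, with 2 of 8 markers above background. The tight junction gene CLDN5 was called higher, from 4.71 to 7.53, and VWF differed by 0.31 (limma adjusted p = 0.0572). PECAM1, CDH5, TEK, TIE1, EMCN and KDR were below background. Among them TEK was lower (−0.36, limma adjusted p = 0.0303) and KDR higher (0.48, limma adjusted p = 0.0275) at high density. For surface epithelium the ranges were 9.70 to 9.76 and 10.20 to 10.38, with 3 of 7 markers above background. UPK1B was called higher, from 9.46 to 10.08. Summed levels follow the brightest markers, so CLDN5 weighs most in the endothelium sum at high density and UPK1B in the surface epithelium sum at both densities. MSLN and CDH1 differed by 0.13 and 0.16 without passing the FDR threshold, and KRT7, KRT19, UPK3B and LRRN4 were below background. This list does not hold the keratins KRT8 and KRT18, which are in the paper's table of genes up-regulated at high density. None of 8 leukocyte and none of 6 red blood cell markers was above background, and their summed levels overlapped between the densities. The red blood cell list holds HBB but not HBA (hemoglobin alpha 2), which heads the paper's table of genes up-regulated at high density. The part of these markers in the results below was not tested, and in RNA from whole cultures fewer cells of a type and less RNA per cell cannot be told apart.

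Of the 54 transcript clusters 8 were called, 6 higher and 2 lower at high density. LGR5, WNT5B, FZD8, SFRP1, WNT11 and PORCN were up-regulated, and WNT2B and LGR4 were down-regulated. Without normal replicate 3 the split was 6 higher and 0 lower, as WNT2B, LGR4 and PORCN were no longer called and FZD4 was. Their share of 14.8% stood beside 7.49% of all transcript clusters (3.97% called higher and 3.51% called lower). At any FC, 15 members passed the FDR threshold, 11 higher and 4 lower, or 27.8% beside 19.1% of all. In 27 members the 3 cultures of one density all lay above the 3 of the other, which held for 37.3% of all transcript clusters. The median difference over the members was 0.08, against 0.02 over all transcript clusters, and the median size of a difference was 0.19 against 0.15. Single differences lay between −0.62 and 2.34. Of the members, 25 reached a mean above background in at least 1 density and 29 did not, and SFRP1 was the 1 called member among the latter.

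**Figure D1:**
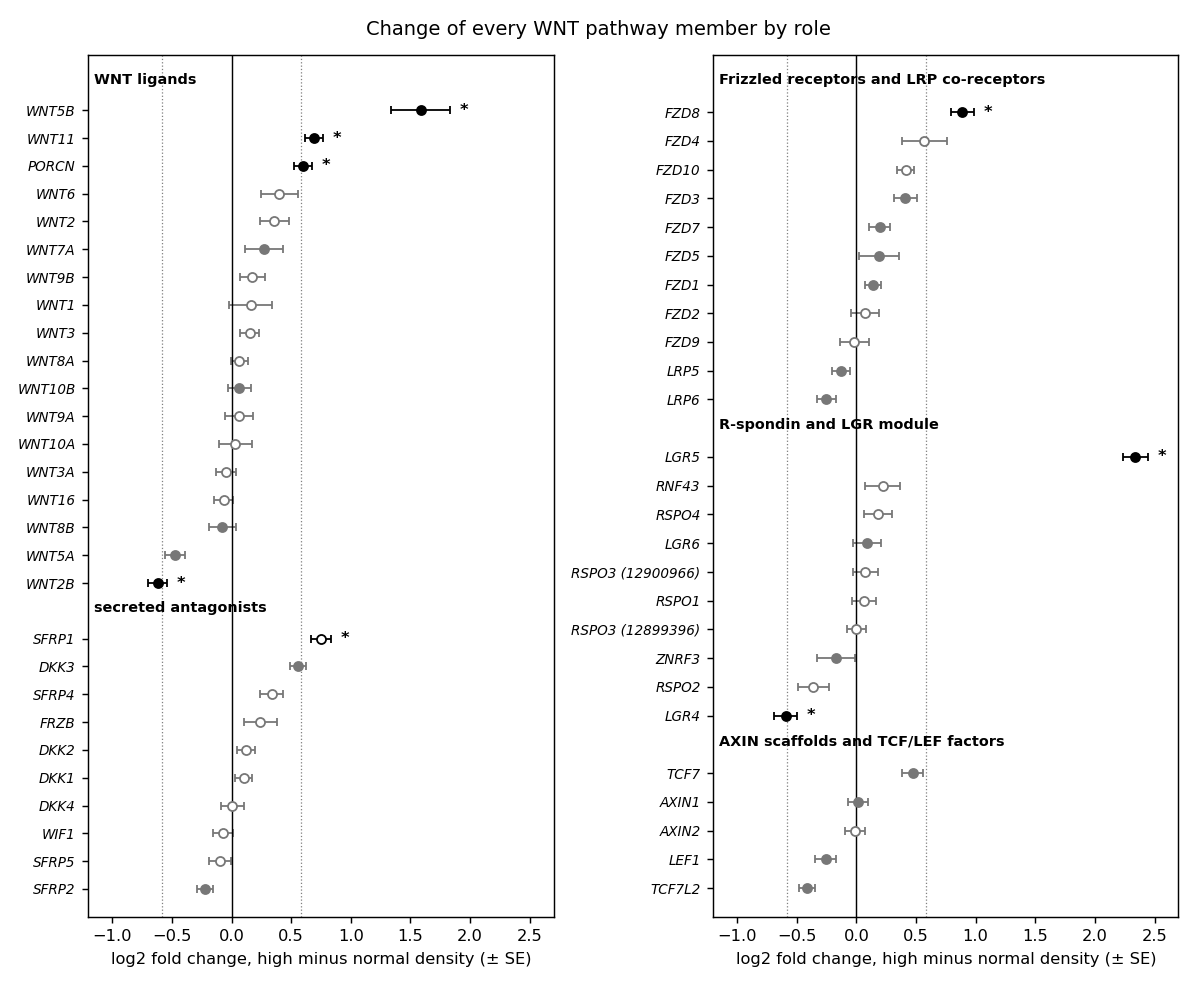
Difference in log2 signal between high and normal density (x axis, mean difference with its limma standard error as bar) for all 54 transcript clusters, ordered by role (y axis). Black points with an asterisk are the 8 called members and grey points the others, open points (SFRP1 among the called) have both means at or below background, and dotted lines mark the FC threshold of 1.5 (0.58 on the log2 scale). LGR5 at 2.34, with normal density signals below background, and WNT5B at 1.59 lie farthest to the right, while WNT2B at −0.62 and LGR4 at −0.59 are the called members to the left of 0.

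Among the genes needed to make a ligand, PORCN, the acyltransferase that adds the lipid to WNT proteins in the endoplasmic reticulum, rose at high density. PORCN (transcript cluster 12905466) had log2 signals of 6.84, 6.86 and 6.79 in the normal density cultures and 7.52, 7.37 and 7.40 in the high density cultures. All signals were well above background, the replicates of a density were close to each other, and the groups did not overlap. The difference was 0.60 (SE 0.07, FC 1.51, limma adjusted p = 0.00138). This lies at the FC threshold, and the call was lost without normal replicate 3 (0.58) and without high replicate 1 (0.55).

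Of the 17 WNT genes, 2 were called higher, WNT5B and WNT11, and 1 lower, WNT2B. WNT5B (12858536), a ligand best known for signalling that does not use β-catenin, gave 4.46, 5.0 and 5.02 at normal density and 6.46, 5.93 and 6.86 at high density. Normal replicate 1 was below background, and the high density cultures spread more widely but all stayed above the highest normal density signal. WNT5B rose 3.00-fold (difference 1.59, SE 0.25, 95% confidence interval 1.01 to 2.17, limma adjusted p = 0.00442). The methods' t-test, which does not share the variance estimate between genes, gave WNT5B an adjusted p of 0.0572 (n = 3 per density, no exact test of 3 against 3 can go below 0.1).

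WNT11 (12733368), another ligand known mainly for β-catenin independent signalling, had signals of 4.45, 4.52 and 4.31 at normal density and 5.16, 5.08 and 5.11 at high density. It was below background in every normal density culture and above it in every high density culture. WNT11 was at least 1.41-fold higher at high density, with a measured difference of 0.69 (SE 0.08, limma adjusted p = 0.00109).

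WNT2B (12843050), a canonical ligand, gave 8.31, 8.26 and 8.40 at normal density and 7.68, 7.61 and 7.81 at high density. The signals were far above background in all cultures, and those at high density were all lower. The fall was −0.62 (SE 0.08, FC −1.54, limma adjusted p = 0.00202). Without normal replicate 3 or high replicate 2 the difference was −0.58 and WNT2B was no longer called.

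WNT5A (12796196), the close relative of WNT5B, was measured at 7.11, 6.97 and 7.23 in normal density cultures and at 6.65, 6.65 and 6.58 in high density cultures. The groups did not overlap and the high density cultures were almost alike. The difference of −0.48 (SE 0.09, 95% confidence interval −0.68 to −0.28, FC −1.39, limma adjusted p = 0.00818) passed the FDR threshold but not the FC threshold. WNT5B and WNT5A therefore differed from their normal density levels in opposite directions.

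The other 13 WNT genes were not called. WNT7A, WNT8B and WNT10B had means just above background, and their differences were 0.27, −0.08 and 0.07 with overlapping groups. WNT1, WNT2, WNT3, WNT3A, WNT6, WNT8A, WNT9A, WNT9B, WNT10A and WNT16 had both means below background, between 1.64 and 4.59, with differences from −0.07 to 0.40. Within these 10 dim genes WNT2 (0.36, limma adjusted p = 0.0809), WNT3 (0.15) and WNT6 (0.40) had groups that did not overlap. Such groups were seen in 37.3% of all transcript clusters. Some WNT genes lie next to each other in the genome, and RefSeq's gene order (assembly ARS-UCD2.0) holds 4 such neighbour pairs among the members, WNT3 with WNT9B, WNT6 with WNT10A, WNT1 with WNT10B and WNT3A with WNT9A. No gene of these pairs was called. All of them except WNT10B, which was just above background, had both means below background, so little can be read from this. The transcript clusters listed under the locus names of WNT4, a ligand of ovarian development, and WNT7B were below background as well, WNT4 at 3.25 ± 0.21 and 3.43 ± 0.22 (SD, n = 3) in normal and high density and WNT7B at 4.43 ± 0.06 and 4.59 ± 0.24 (SD, n = 3).

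**Figure D2:**
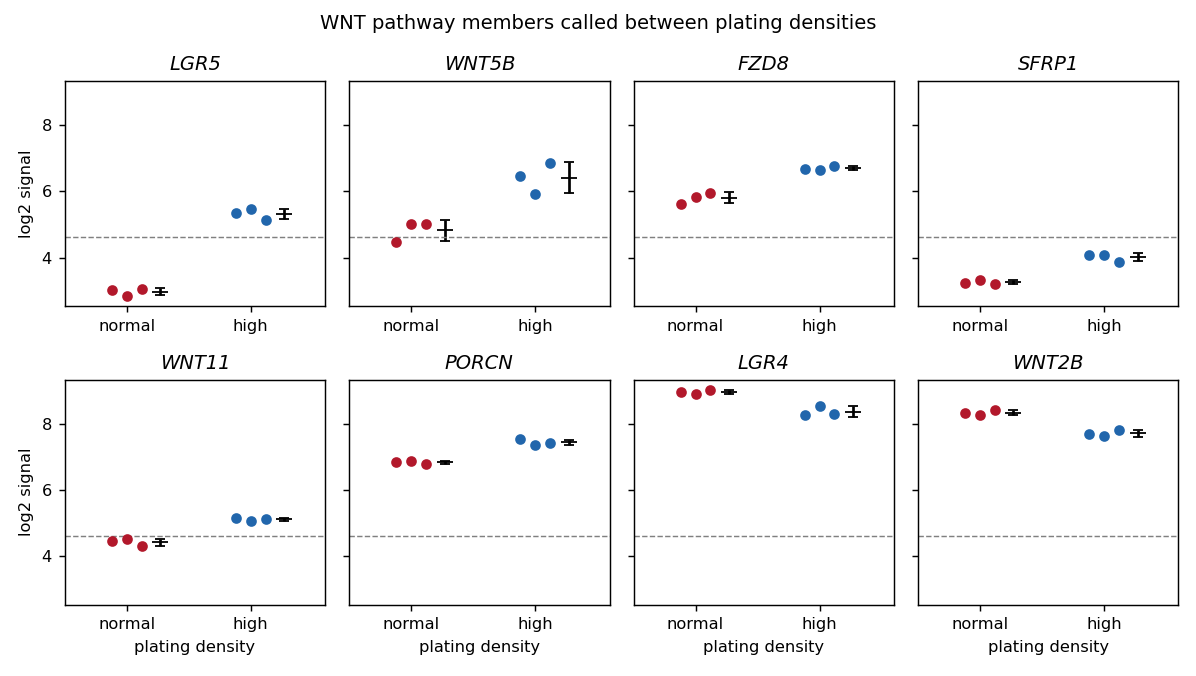
Log2 signal (y axis) of the 8 called members in each of the 6 cultures, 1 panel per gene, with normal density in red and high density in blue, the mean and SD of the 3 cultures beside the points, and the background level of 4.62 as a dashed line. LGR5 and WNT11 lie below the line at normal density and above it at high density, SFRP1 stays below it throughout, and no panel has overlapping groups.

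Of the receptors, FZD8 was up-regulated and no other FZD or LRP gene was called. FZD8 (12720971), a receptor for canonical WNT ligands, had signals of 5.61, 5.84 and 5.94 at normal density and 6.68, 6.64 and 6.75 at high density. Both groups were above background, and the high density cultures lay close together well above the normal ones. The difference was 0.89 (SE 0.10, 95% confidence interval 0.66 to 1.12, FC 1.85, limma adjusted p = 9.23e-04).

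FZD3 (12892865), a receptor with a known role in planar cell polarity and axon guidance, gave 6.06, 6.17 and 6.21 at normal density and 6.40, 6.72 and 6.54 at high density. Its groups did not overlap, and the difference of 0.41 (SE 0.10, FC 1.33, limma adjusted p = 0.0247) passed the FDR threshold only. FZD1 was at 7.26, 7.33 and 7.29 against 7.41, 7.41 and 7.48, a difference of 0.14 that did not pass the FDR threshold (limma adjusted p = 0.192). FZD7 differed by 0.19 (limma adjusted p = 0.185) and FZD5 by 0.19 with overlapping groups (95% confidence interval −0.20 to 0.59).

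FZD2, FZD4, FZD9 and FZD10 had both means below background. FZD10 was at 3.13, 3.15 and 3.15 against 3.46, 3.62 and 3.59, and its difference of 0.41 passed the FDR threshold (limma adjusted p = 0.00678). FZD4, which is required for a working corpus luteum in mice, was at 2.89, 3.32 and 3.61 against 3.79, 4.06 and 3.68. This difference of 0.57 (SE 0.19) did not pass (limma adjusted p = 0.0752), and it was called when normal replicate 3 was left out (0.74, limma adjusted p = 0.0393). Of the 9 FZD genes 8 had the higher mean at high density, and in 6 the groups did not overlap, all of them higher. Over the whole table, 14339 of 26773 transcript clusters had the higher mean at high density, and 37.3% had groups that did not overlap, 4775 of them higher.

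The co-receptors LRP5 and LRP6 had the lower mean at high density. LRP6 was at 7.56, 7.51 and 7.49 at normal density and at 7.21, 7.39 and 7.19 at high density, a difference of −0.25 (SE 0.08, limma adjusted p = 0.0641). LRP5 differed by −0.13 (95% confidence interval −0.31 to 0.05). Neither passed the FDR threshold, although the groups of both genes did not overlap.

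Of the 10 secreted antagonists SFRP2 and DKK3 were above background. SFRP2 (12742481), a WNT binding antagonist, had signals of 10.11, 10.14 and 10.09 at normal density and 9.94, 9.81 and 9.90 at high density. The groups did not overlap, but the difference of −0.22 (SE 0.07, limma adjusted p = 0.0608) missed the FDR threshold. DKK3 (12727136), a divergent member of the Dickkopf family that is not a typical LRP blocker, was at 6.89, 6.93 and 6.89 against 7.43, 7.42 and 7.54. All high density cultures were higher, and the difference of 0.56 (SE 0.07, FC 1.47, limma adjusted p = 0.00157) passed the FDR threshold and lay just below the FC threshold.

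SFRP1 (12824828), a WNT binding antagonist like SFRP2, was called higher although both of its means were below background. Its signals were 3.22, 3.33 and 3.22 at normal density and 4.07, 4.08 and 3.87 at high density. The groups were far apart relative to their spread (difference 0.75, SE 0.08, limma adjusted p = 9.76e-04), but the fold behind it is not measured at this signal. SFRP4 was at 3.15, 3.35 and 3.44 against 3.72, 3.56 and 3.67, also below background (0.34, limma adjusted p = 0.0483). DKK1, DKK2, DKK4, FRZB, SFRP5 and WIF1 were below background and did not pass the FDR threshold, with differences from −0.09 for SFRP5 to 0.24 for FRZB.

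Of the 3 LGR receptors, LGR5 was called higher and LGR4 lower. LGR5 (12860048), an R-spondin receptor known as a marker of epithelial stem cells, had signals of 3.02, 2.84 and 3.07 at normal density and 5.35, 5.45 and 5.14 at high density. Every normal density culture was below background and every high density culture above it. LGR5 was at least 1.62-fold higher at high density, and the measured difference was 2.34 (SE 0.10, 95% confidence interval 2.09 to 2.58, limma adjusted p = 2.10e-05). As the normal density signals are below background, the lower bound and not the measured difference gives the size that can be read. The measured difference stayed between 2.26 and 2.43 in the alternative analyses and was called in each of the 12. LGR5 is known from the ovarian surface epithelium of mice. Of the markers of these cells above background, UPK1B was called higher (0.62). MSLN (0.13, limma adjusted p = 0.205) and CDH1 (0.16, limma adjusted p = 0.177) did not pass the FDR threshold. All 7 markers of that list, 4 of them below background, had the higher mean at high density. In 5 of the 7 the groups did not overlap, beside 37.3% of all transcript clusters. The part of such cells in the rise of LGR5 was not tested.

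LGR4 (12731200), the related receptor with broad expression in many tissues, had signals of 8.96, 8.88 and 9.01 at normal density and 8.25, 8.54 and 8.28 at high density. It was well above background everywhere and lower in all 3 high density cultures. The fall was −0.59 (SE 0.10, FC −1.51, limma adjusted p = 0.00536). As it lies at the FC threshold, LGR4 was not called without normal replicate 3 (−0.56), high replicate 1 (−0.54) or high replicate 3 (−0.55).

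LGR6, the remaining receptor of this family, was near background at 4.70, 5.02 and 5.01 against 5.09, 4.84 and 5.08, with overlapping groups (0.09, 95% confidence interval −0.18 to 0.36). The R-spondin genes RSPO1, RSPO2, RSPO3 and RSPO4, which encode the ligands of these receptors, had all means between 2.56 and 4.46, below background at both densities. Their differences were between −0.36 and 0.18 and none was called. The 2 transcript clusters of RSPO3 carry the same accession in the table and differed by 0.00 and 0.07. The ligases were not called either. ZNRF3 differed by −0.17 (95% confidence interval −0.54 to 0.20) and RNF43, below background, by 0.22 (95% confidence interval −0.12 to 0.56).

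Inside the cell, no AXIN or TCF/LEF gene was called. TCF7 (12882202) was at 5.53, 5.50 and 5.62 in normal density cultures and at 5.96, 5.94 and 6.17 in high density cultures. TCF7L2 (12820770) was at 6.01, 6.05 and 6.07 against 5.69, 5.59 and 5.62. Both encode DNA binding partners of β-catenin, both had groups that did not overlap, and they differed in opposite directions. The differences were 0.47 for TCF7 (SE 0.09, FC 1.39, limma adjusted p = 0.00903) and −0.41 for TCF7L2 (SE 0.07, FC −1.33, limma adjusted p = 0.00517), which passed the FDR threshold and not the FC threshold.

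LEF1, a further factor of this group, was at 5.25, 5.43 and 5.22 against 5.08, 4.94 and 5.12, and its difference of −0.25 did not pass the FDR threshold (limma adjusted p = 0.0898). AXIN2, a widely used transcriptional readout of canonical WNT signalling, had signals of 4.54, 4.51 and 4.52 at normal density and 4.66, 4.38 and 4.51 at high density. The means were below background and the groups overlapped (−0.01, 95% confidence interval −0.21 to 0.19). AXIN1, the constitutive scaffold, differed by 0.01 (95% confidence interval −0.18 to 0.20).

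**Figure D3:**
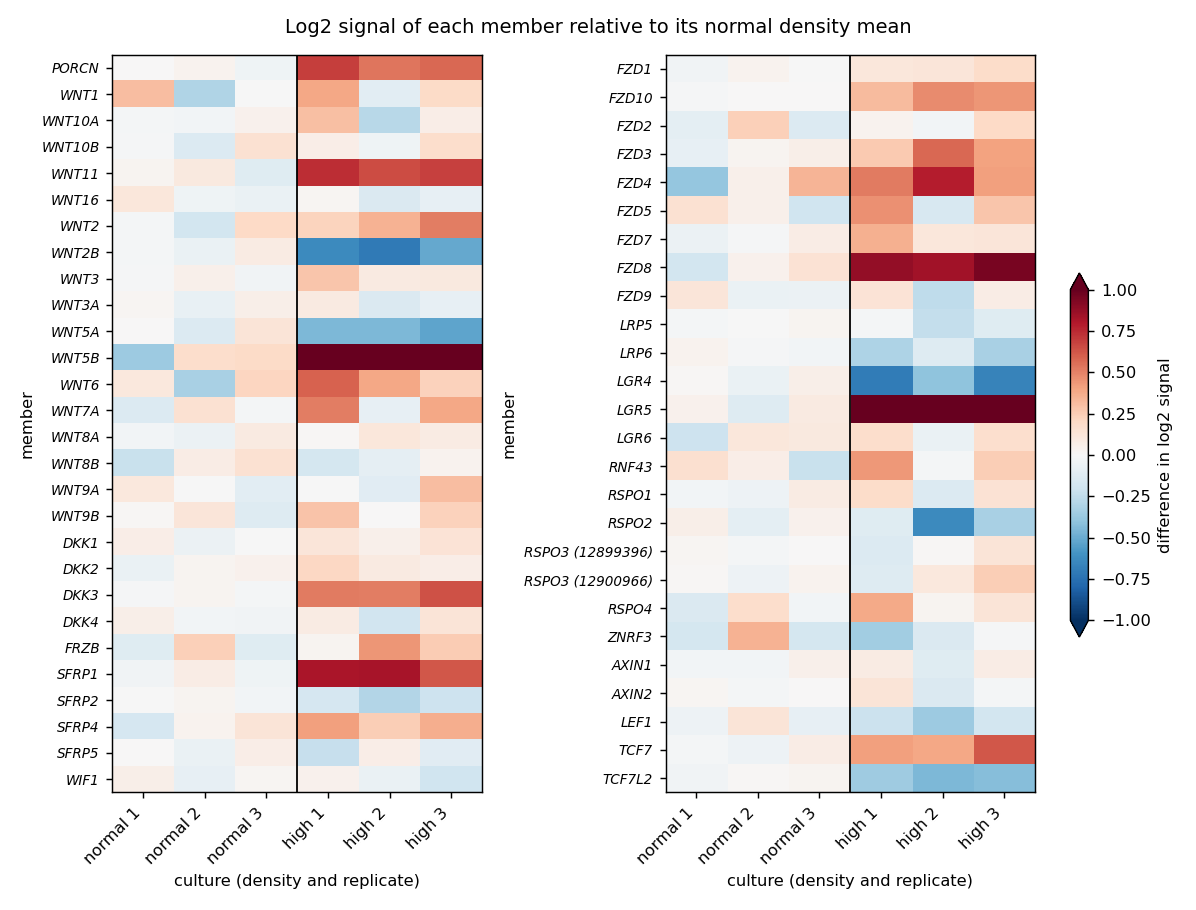
Log2 signal of each of the 54 transcript clusters (rows, by role) in each of the 6 cultures (columns), minus the mean of the normal density cultures of that transcript cluster. Red is higher and blue lower, and the colour scale ends at 1 and −1, so that LGR5 and WNT5B exceed it. The columns of the high density cultures share the rises of LGR5, WNT5B, FZD8, SFRP1, WNT11 and PORCN and the falls of WNT2B and LGR4.

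Over all members, cultures of different density were 3.57 to 4.25 log2 units apart (Euclidean distance over the 54 transcript clusters). Pairs of normal density cultures were 1.41 to 1.55 apart and pairs of high density cultures 1.31 to 1.99. High replicate 2 had the lowest signal of the 3 high density cultures in 34 of the 54 members (63.0%), a position it held in 44.1% of all transcript clusters. The median SD of a member was 0.08 at normal and 0.13 at high density, as it was over all transcript clusters.

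In 3 pairs of related genes the densities differed in opposite directions. These pairs were chosen after their values were seen and are given as a description without a test. The log2 signal of LGR5 minus that of LGR4 was −5.97 ± 0.05 in normal and −3.04 ± 0.13 in high density cultures (SD, n = 3 each), a shift of 2.93. WNT5B minus WNT5A went from −2.28 ± 0.34 to −0.21 ± 0.50 (SD, n = 3 each), a shift of 2.06. TCF7 minus TCF7L2 went from −0.49 ± 0.05 to 0.39 ± 0.15 (SD, n = 3 each), a shift of 0.88. As signals of different probes have no common scale, the levels within a pair cannot be compared. The size of the LGR5 and LGR4 shift cannot be read either, since LGR5 was below background at normal density and carries only the bound given above. With each culture left out in turn the shifts stayed within 2.86 to 2.98, 1.82 to 2.32 and 0.80 to 0.94, in the same order.

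**Figure D4:**
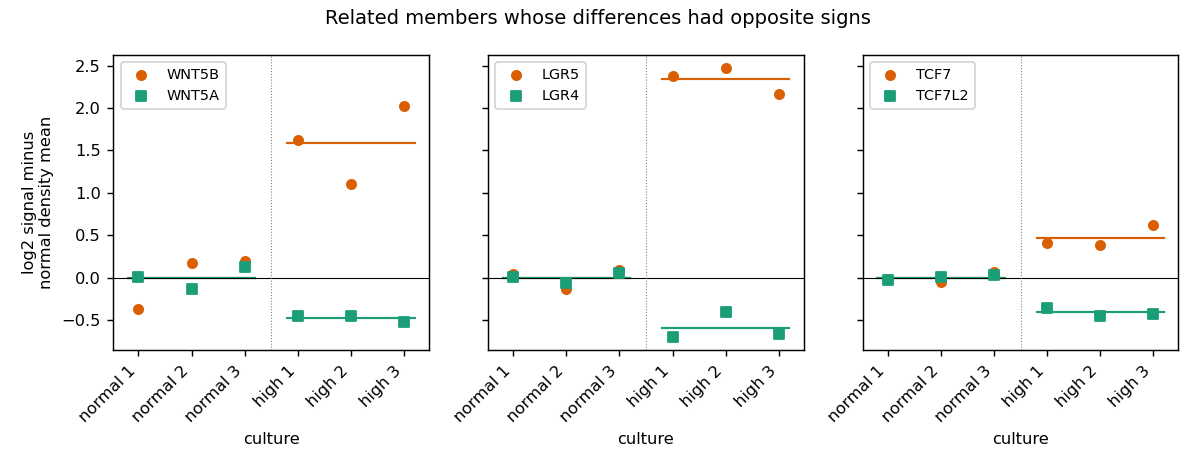
Log2 signal minus the normal density mean of the same gene (y axis) in the 6 cultures for WNT5B and WNT5A, LGR5 and LGR4, and TCF7 and TCF7L2, with 1 point per culture and the mean of a density as a line. In each pair the first gene lies above 0 and the second below 0 in all 3 high density cultures.

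The other genes of the pathway were taken from a list of 62 receptors, scaffolds, kinases and regulators, of which 59 were found on 62 transcript clusters. At high density 3 of them were called higher and none lower, DAAM2, DACT1 and GPC4. This share of 4.84% is below the 7.49% of all transcript clusters (3.97% higher, 3.51% lower). When each array was centred on its median, the split was 2 higher and 1 lower, as CSNK1G1, a casein kinase, became called and GPC4 did not. DAAM2, a formin that links Dishevelled to the actin skeleton, had signals of 7.17, 7.16 and 7.11 at normal density and 8.42, 8.23 and 8.36 at high density, a difference of 1.19 (SE 0.08, FC 2.28, limma adjusted p = 9.37e-05). DACT1, a Dishevelled binding regulator, was at 8.10, 8.27 and 8.20 against 9.35, 9.15 and 9.19, a difference of 1.04 (FC 2.05, limma adjusted p = 2.59e-04). GPC4, a cell surface glypican that binds WNT proteins, was at 6.76, 6.72 and 6.75 against 7.26, 7.53 and 7.25, a difference of 0.60 (FC 1.52, limma adjusted p = 0.00419). For all 3 the high density cultures lay above every normal density culture, and without high replicate 2 GPC4 was not called (0.51).

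At any FC, 18 of these transcript clusters passed the FDR threshold, 6 higher and 12 lower (29.0%, beside 19.1% of the whole table with 2314 higher and 2792 lower). Those lower at high density included APC (−0.29), a scaffold of the degradation complex, BTRC (−0.40), which marks β-catenin for degradation, BCL9 (−0.32) and BCL9L (−0.52), co-activators of β-catenin, CHD8 (−0.51), a repressor of it, and ROR1 (−0.34) and RYK (−0.32), WNT receptors outside the FZD family. The remaining lower ones were CSNK1G1 (−0.55), AMER1 (listed as FAM123B, −0.42), CELSR2 (−0.42), VANGL1 (−0.31) and TNKS (−0.28). Higher were PTK7 (0.26), PRICKLE1 (0.40), APCDD1 (0.30) and the 3 called genes. CTNNB1, which encodes β-catenin, was at 10.26 ± 0.02 and 10.05 ± 0.09 (SD, n = 3) and did not pass (−0.21, limma adjusted p = 0.0912). The median difference of the list was −0.05.

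A further list held 31 genes in use as readouts of β-catenin and TCF activity. NKD1, APCDD1 and NOTUM are also in the list of other pathway genes, so NKD1 and APCDD1 count in both. Of the 31 genes 30 were found. Of these 9 were called, 8 higher and 1 lower (30.0%, beside 7.49% of all transcript clusters). The FDR alone was passed by 16, of which 14 were higher (53.3%, beside 19.1%). The median difference was 0.32. The list was chosen with earlier results of these data known, so its shares and median cannot be read as an excess over the table. Many of its genes answer to other signals as well, so the count describes the list and not the activity of the pathway. CD44, a hyaluronan receptor, was at 5.95, 5.92 and 6.07 against 7.36, 7.33 and 7.12 (difference 1.29, SE 0.09, FC 2.45, limma adjusted p = 1.30e-04). BMP4, a growth factor, was below background at normal density (3.63, 3.17 and 3.52) and above it at high density (5.18, 5.07 and 5.39), at least 1.51-fold higher. VEGFA rose by 1.08, SOX9 by 0.83, TWIST1 by 0.68 and CCN4 (listed as WISP1) by 1.08 on the log2 scale. FGF9 was at least 1.14-fold higher, and FGF18 was called with both means below background. CCND1, which encodes cyclin D1 and drives entry into the cell cycle, was the 1 gene of the list called lower, from 5.27, 5.33 and 5.50 to 4.56, 4.23 and 4.73 (−0.86, FC −1.82, limma adjusted p = 0.00448). Its high density mean of 4.50 lay below background, so the size of this fall is not fully measured. BIRC5 differed by −0.42 and passed the FDR threshold only (limma adjusted p = 0.0259). MYC (0.03), with both means above background, was not called. SP5 (0.23) and NKD1 (0.40) were not called either, but both of their means lay below background. Of the 30 genes 14 were below background at both densities. Among the members that also serve as such readouts, LGR5 was called, and AXIN2, RNF43, ZNRF3, LEF1, TCF7 and DKK1 were not.

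**Figure D5:**
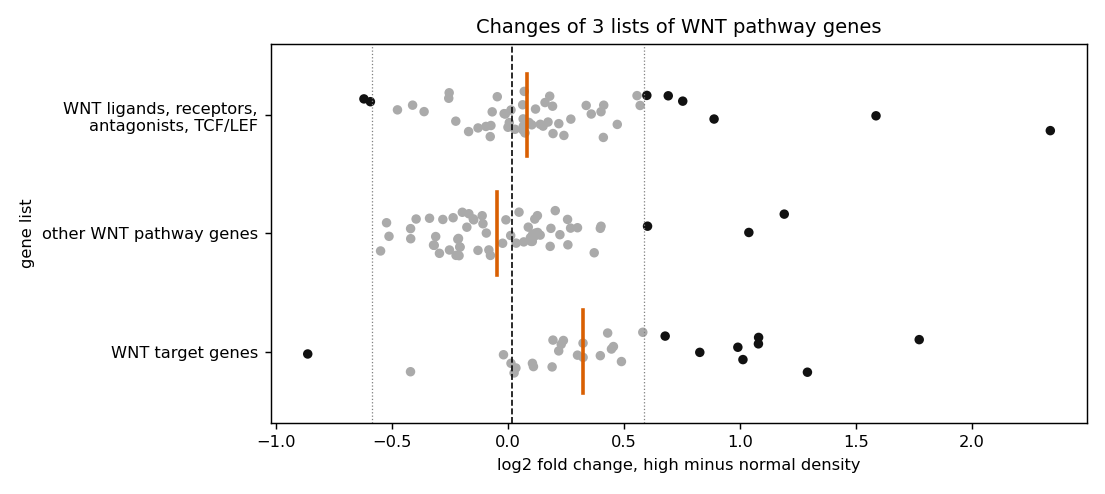
Difference in log2 signal between high and normal density (x axis) for the 54 members, the 62 transcript clusters of the other pathway genes and the 30 target genes (y axis, spread at random within a list), 1 point per transcript cluster, black when called and grey when not, with dotted lines at the FC threshold. The orange bars mark the medians of 0.08, −0.05 and 0.32, and the dashed line the median of all transcript clusters, 0.02. The lists were chosen with earlier results of these data known, and NKD1 and APCDD1 are among both the other pathway genes and the target genes.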

How the data were processed

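RNA of 6 cultures was hybridized to Bovine Gene 1.0 ST Arrays. The authors processed the scans in Expression Console with RMA (background correction, normalization between arrays, gene-level summary), and the deposited values are log2 signals per transcript cluster and culture. These log2 signals were used as deposited. The table names no genome build, so no coordinates are given. RMA brings all arrays to one distribution, so a shift common to all genes cannot be seen.

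The densities were compared in limma (version 3.58.1, R 4.3.3) by a linear model without covariates and empirical Bayes moderation, two-sided. P-values were adjusted after Benjamini and Hochberg over the whole table of 26773 transcript clusters, and the thresholds were those of the methods. Errors of means are SD and those of differences SE (n = 3 per density). The number of arrays limits the precision. A fold for a gene below background in all cultures of one density is a lower bound, taken against the background level or, where higher, the gene's own signal. Summed marker levels are log2 of summed linear signals, in which the brightest markers weigh most and markers below background are included. The members and the pathway, target and marker lists were chosen with earlier results of these data known. Each member that was called, or that passed the FDR threshold with a mean above background, is given with its signals in all 6 cultures, and the called genes of the lists are named. Other single genes, including AXIN2, SFRP2, FZD4 and CTNNB1, were named after their values were seen. NOTUM, CELSR3 and DACT3 were not found by symbol. Of 44 member transcript clusters with a RefSeq accession, 35 led to the same symbol in the RefSeq table and 0 to another. Alternatives were the methods' t-test, a variance trend with robust fitting, weights for the arrays, a block for the replicate number, centring on the array median, a filter at the background level, no FC threshold, and leaving out each culture. Replicate numbers gave correlations of deviations of 0.05, −0.05 and −0.04 between same-numbered cultures and were not used as pairs. The test was checked on simulated data. Python 3.11.15 with matplotlib 3.10.9 drew the figures.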

Additional observations from a re-analysis of the deposited data

How the results depend on the processing

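Of the 8 called members, LGR5, WNT11, FZD8 and SFRP1 were called in all 12 alternatives that keep the FC threshold, except that SFRP1 was not tested under the filter at the background level. The number of members called was 7 with the ordinary t-test (without WNT5B) and 8 with a variance trend and robust fitting. It was 8 with array weights (WNT2B lost at −0.57, DKK3 gained at 0.59) and 7 with median centring (PORCN lost at 0.56). It was 7 of 25 tested with the background filter, and 6 to 8 with a culture left out. Both falls were lost without normal replicate 3 (6 higher, 0 lower, 5 of them among the 8), and 1 of the 2 without high replicate 1, 2 or 3. With the replicate number as a block 8 members were called, all of them among the 8 without it, and 2020 transcript clusters against 2005 overall. The numbers did not pair the cultures. Without an FC threshold 15 members, 18 other pathway genes, 16 target genes and 5106 of all transcript clusters passed. With a culture left out the called pathway genes numbered 3 to 4, the called target genes 9 to 10 and all called transcript clusters 1848 to 2434. CCN4 was not called by the ordinary t-test (adjusted p 0.0762), and GPC4 was not called with array weights (0.54) or median centring (0.56). No called gene changed its direction.

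13 uncalled transcript clusters with differences near 0 changed sign in some alternative. With median centring WNT10A was at −0.013, DKK4 at −0.037, RSPO3 (12899396) at −0.043 and AXIN1 at −0.030, and with array weights FZD9 was at 0.055 and AXIN2 at 0.014. With a culture left out the differences ranged from −0.10 to 0.18 for WNT10A, −0.0032 to 0.14 for WNT10B, −0.11 to 0.0040 for WNT3A, −0.19 to 0.00026 for WNT8B, −0.057 to 0.15 for WNT9A, −0.092 to 0.10 for FZD9, −0.055 to 0.10 for DKK4, −0.013 to 0.17 for LGR6, −0.062 to 0.068 and −0.011 to 0.18 for the RSPO3 transcript clusters, −0.26 to 0.0041 for ZNRF3, −0.022 to 0.081 for AXIN1 and −0.082 to 0.057 for AXIN2. The cause of these changes was not tested. The signal over background limits what could be read for the 29 members below it. Searches of promoter sequences and comparisons of protein sequences were planned and not run, as no sequence table was used here.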
